A study of Homo sapiens with 9 samples.

Results

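Interferons act on cells through paired receptor chains, the Janus kinases (JAKs) that are bound to the inner side of those chains, and transcription factors that the kinases switch on. The 9 genes described here encode the receptor chains IFNAR1, IFNAR2, IFNGR1 and IFNGR2, the kinases JAK1, JAK2 and TYK2, and the factors STAT2 and IRF9. They were taken by symbol from the 60649 genes of the count table, and their counts were followed across 3 groups of 3 libraries of MDA-MB-231, a long-established line from a human breast cancer of the triple-negative type. Control cells carried the vector pLKO-GFP, and the other groups carried shAHR#2 or shAHR#3, short hairpin RNAs against AHR, the aryl hydrocarbon receptor, a ligand-activated transcription factor. The medium given for this line in the study's methods is DMEM with serum. Per the study's methods, hairpins and control vector were delivered by lentivirus, cells were selected with puromycin, and the surviving cells were pooled rather than cloned. The study's methods number the hairpins differently from the labels, so each construct is called here by its label and is a lone hairpin. The labels number replicates but do not say whether they were separate cultures, so p-values measure only the spread between these libraries, which may be technical.

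Type I interferons bind a receptor made of IFNAR1, which holds TYK2, and IFNAR2, which holds JAK1. Interferon gamma binds IFNGR1, which holds JAK1, and is signalled on through IFNGR2, which holds JAK2. After a type I signal, STAT2 and IRF9 are subunits of the complex ISGF3, which binds interferon-stimulated response elements, whereas interferon gamma acts through STAT dimers at gamma-activated sites. AHR itself binds DNA with its partner ARNT at elements with the core GCGTG.

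Total counts per library ranged from 15991396 to 20374460, and 14274 genes had enough reads to be tested. Levels are given as CPM, counts scaled to library size by TMM, and a gene was called higher or lower where the adjusted p of edgeR's quasi-likelihood test was under 0.05. The targeted gene AHR was at 114, 118 and 121 CPM in the control libraries, at 42.5, 40.4 and 41.9 with shAHR#2 and at 46.3, 52.1 and 44.5 with shAHR#3, so no knockdown library reached the control range. The 7 epithelial markers summed to 677 to 713 CPM in the controls, 755 to 783 with shAHR#2 and 859 to 913 with shAHR#3, nearly all of it KRT8, KRT18 and KRT19. CDH1 had means of 0.909, 1.80 and 4.16 CPM and EPCAM of 6.62, 6.06 and 6.11 CPM in the same order of groups, and the basal keratins KRT5 and KRT14 had no more than 2 reads in any library. The leukocyte markers CD3E and ITGAM had at most 1 read, but the summed level of the 6 leukocyte markers was 1.47 to 1.82 CPM in controls, 4.05 to 5.42 with shAHR#2 and 3.22 to 3.68 with shAHR#3. The summed level of 3 endothelial markers, nearly all of it PECAM1, was 2.15 to 2.71, 10.4 to 12.7 and 12.04 to 13.3 CPM. The 4 fibroblast markers summed to 14.5 to 17.3, 14.1 to 15.6 and 28.1 to 31.3 CPM, but they differed in direction, with means of 6.31, 10.02 and 11.3 CPM for COL1A1, 1.76, 0.420 and 0.305 for COL1A2 and 8.20, 4.62 and 18.3 for PDGFRB, and DCN had no more than 1 read. The 3 mesenchymal features summed to 3546 to 3593, 4709 to 4817 and 4035 to 4085 CPM, mostly VIM (means of 2634, 3875 and 3330 CPM), while CD44 had means of 811, 692 and 578 CPM. Of the 3 receptors by whose lack or low level triple-negative cancers are defined, ESR1 had at most 4 reads, PGR none, and ERBB2 a control mean of 62.4 CPM. The part of these shifts in the results below was not tested, and in cultures of this kind fewer cells with a transcript and less RNA per cell cannot be told apart.

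IFNGR1 and JAK2 were higher with either hairpin, and IFNAR2 was lower with either. IFNAR1 and STAT2 were called in opposite directions by the 2 hairpins, the STAT2 call with shAHR#2 being lost under 6 of 16 alternative fits. TYK2 was higher with shAHR#3, IFNGR2 was lower with shAHR#2, JAK1 was called in no comparison, and IRF9 had too few reads to be tested. Thus 8 of the 9 genes were tested. With shAHR#2 against pLKO-GFP, 3 of the 8 were higher, beside 32.6% of all genes tested, and 3 were lower, beside 33.2%. With shAHR#3 against pLKO-GFP, 4 were higher, beside 26.9%, and 2 were lower, beside 27.5%. Taking the mean of both constructs, 4 were higher (31.5% of all genes) and 2 lower (32.9%). Between the constructs, 3 were higher with shAHR#3 than with shAHR#2 (21.9% of all genes) and 1 was lower (20.4%). These shares are of the same order as those over all genes, and the members' changes were small: their median absolute log2 fold change was 0.28 with shAHR#2 and 0.21 with shAHR#3, against 0.32 and 0.23 over all genes tested. Both constructs were compared with the same 3 control libraries.

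**Figure D1:**
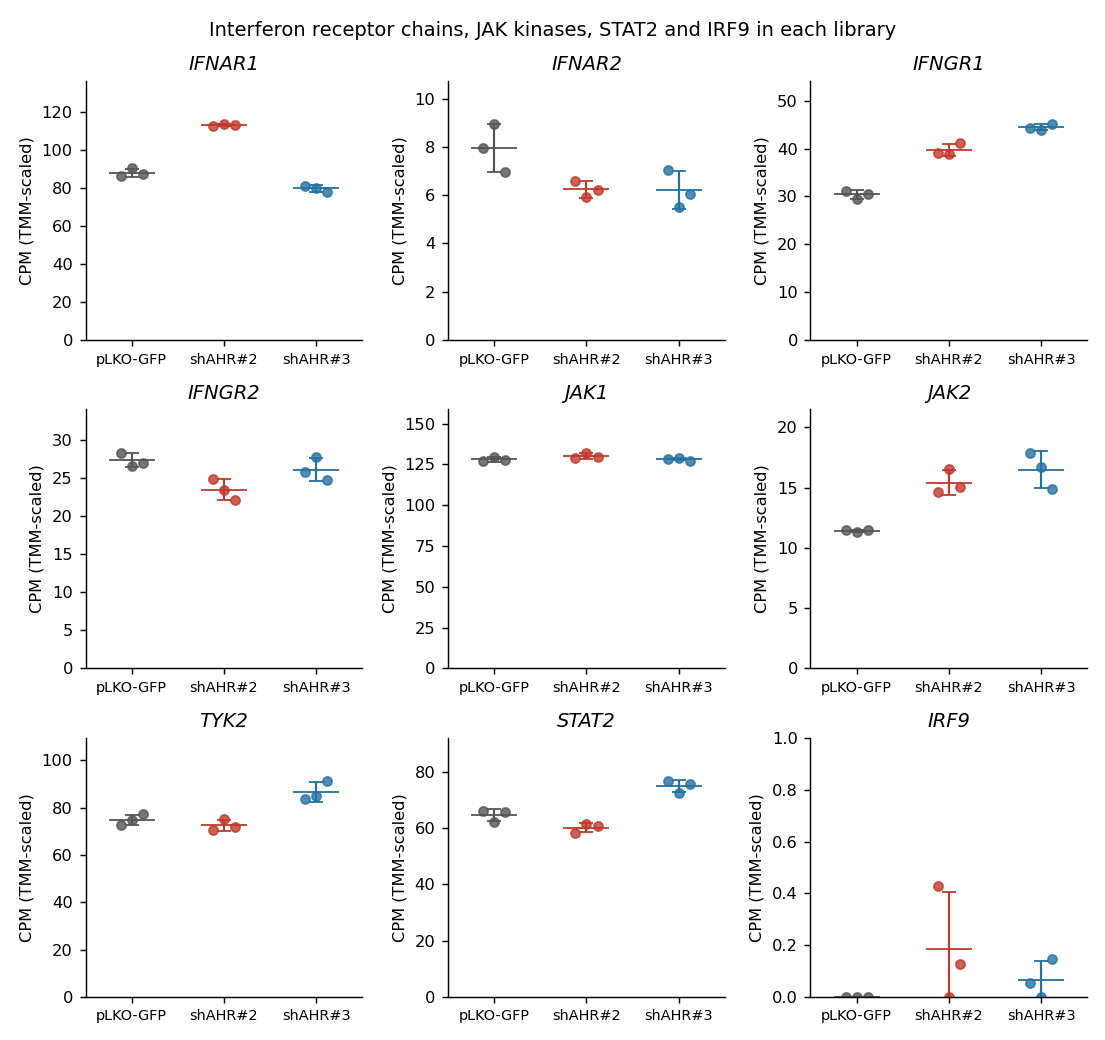
CPM of each gene (vertical axis, from 0) in the 3 libraries of each group (points), with the group mean and SD (n = 3). IFNAR1 is highest in the shAHR#2 libraries, IFNGR1 is lowest in the control libraries, JAK1 is level, and no IRF9 value exceeds 0.429 CPM.

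IFNAR1 (ENSG00000142166.13, chromosome 21, 33324387 to 33359864 on the plus strand of GRCh38) encodes the chain of the type I receptor that binds TYK2. It was counted at 85.9, 90.3 and 86.9 CPM in the control libraries, at 112, 113 and 113 CPM with shAHR#2 and at 81.1, 80.1 and 77.6 CPM with shAHR#3. All shAHR#2 libraries were thus above, and all shAHR#3 libraries below, the control range. The log2 fold change was 0.36 with shAHR#2 (standard error 0.04, edgeR adjusted p = 5.01e-11), a rise of 28.6%. With shAHR#3 it fell by 0.14 on the log2 scale (standard error 0.04, edgeR adjusted p = 0.00159). The difference between the constructs, -0.50 (standard error 0.04, edgeR adjusted p = 3.42e-14), had the largest absolute value among the 8 genes tested. The mean of both constructs differed from the control by 0.11 (edgeR adjusted p = 0.00287), and by 0.06 (adjusted p = 0.0848) when libraries were scaled by their totals alone.

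The promoters of the 9 genes were searched for the AHR-ARNT core GCGTG, the gamma-activated site TTCNNNGAA and the response element core TTTCNNTTT on both strands, in windows from 250 bases before to 50 bases after each RefSeq start (GRCh38.p14). RefSeq windows were found for 8 of the 9 genes, all but IFNAR2. The window of the second IFNAR1 start, chr21:33324720-33325019, held 6 matches to GCGTG, while that of its first start held none. Of 35116 promoter windows of this length, 36.5% held at least 1 match and 0.319% held 6 or more. The stretches below, on the plus strand, carry 5 of the 6 matches in capitals and are shown because no other window of the members held as many matches and IFNAR1 had the largest difference between the hairpins. The shares above are of single windows and make no allowance for picking the window with most matches. In the first stretch the first 2 matches share a base. Of the bases of the stretches, 19 of 30, 29 of 29 and 28 of 28 lie in annotated exons.
IFNAR1 chr21:33324854-33324883: ggcGCGTGCGTGgaggaacggcGCGTGcgc
IFNAR1 chr21:33324904-33324932: agaagaggcggcGCGTGcgtagaggggcg
IFNAR1 chr21:33324942-33324969: aagaggggcagcGCGTGtgcagaggggc

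A match is a description of letters, and binding of AHR was not measured in these libraries. The windows of IFNGR1, IFNGR2 and TYK2 held 1 match to GCGTG each at 1 of their starts, JAK1 held 2 at its first start, and STAT2 and IRF9 held none. The response element core TTTCNNTTT, present in 10.5% of all windows, was matched only in JAK1, with 1 match at each of 2 starts.

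IFNAR2 (ENSG00000159110.21, chromosome 21, 33205282 to 33265675, plus strand) encodes the other chain of the type I receptor, which binds JAK1. It was a low-count gene, at 7.96, 8.94 and 6.94 CPM in the controls, 6.60, 5.91 and 6.20 CPM with shAHR#2 and 7.05, 5.53 and 6.05 CPM with shAHR#3. The shAHR#2 libraries lay below all controls, while the highest shAHR#3 library lay above the lowest control. IFNAR2 fell by 0.35 on the log2 scale with shAHR#2 (standard error 0.13, edgeR adjusted p = 0.0177) and by 0.36 with shAHR#3 (standard error 0.12, edgeR adjusted p = 0.0148). Without pLKO-GFP replicate 2, which had the highest value, neither call held (edgeR adjusted p = 0.127 and 0.12), the call with shAHR#2 was also lost without shAHR#2 replicate 2 (adjusted p = 0.0627), and that with shAHR#3 without shAHR#3 replicate 2 (adjusted p = 0.0863). The constructs differed by -0.01 (standard error 0.13, edgeR adjusted p = 0.959). Of the exon bases of the canonical IFNAR2 transcript, 49.1% are also annotated as exons of a readthrough gene that joins IFNAR2 to its neighbour IL10RB, so the count of IFNAR2 depends on how shared reads were assigned, which the sources used here do not give.

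IFNGR1 (ENSG00000027697.15, chromosome 6, 137197483 to 137219449, minus strand), the chain that binds interferon gamma itself, rose with both hairpins. Its levels were 31.2, 29.5 and 30.6 CPM in the controls, 39.1, 38.8 and 41.1 CPM with shAHR#2 and 44.4, 43.9 and 45.1 CPM with shAHR#3. The 3 groups did not overlap, with the control libraries lowest and the shAHR#3 libraries highest. Its log2 fold change was 0.38 with shAHR#2 (standard error 0.06, edgeR adjusted p = 2.67e-07) and 0.55 with shAHR#3 (standard error 0.05, edgeR adjusted p = 7.88e-11). The difference of 0.16 between the constructs also passed the threshold (standard error 0.05, edgeR adjusted p = 0.0128).

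IFNGR2 (ENSG00000159128.15, chromosome 21, 33403413 to 33479348, plus strand), the second chain of that receptor, was lower with shAHR#2. It was at 28.3, 26.6 and 27.0 CPM in the controls, at 24.8, 23.5 and 22.1 CPM with shAHR#2 and at 25.8, 27.8 and 24.8 CPM with shAHR#3. The shAHR#2 libraries were all below the controls, whereas the shAHR#3 libraries overlapped both other groups. IFNGR2 fell by 0.21 on the log2 scale with shAHR#2 (standard error 0.07, edgeR adjusted p = 0.00797), a call that was lost without shAHR#2 replicate 3 (adjusted p = 0.0545). The log2 fold change under shAHR#3 was -0.07 (standard error 0.07, edgeR adjusted p = 0.436), and the difference between the constructs, 0.15, did not pass the threshold (edgeR adjusted p = 0.0892). Exons of TMEM50B on the opposite strand cover 14.97% of the annotated exon bases of IFNGR2, and TMEM50B had 43 to 92 reads per library.

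The chains of each receptor were also compared within a library, as a ratio of TPM, a level that divides the counts by transcript length, here that of the canonical transcript. The ratio of IFNGR1 to IFNGR2 was 0.912 ± 0.0126 (SD, n = 3) in the controls, 1.39 ± 0.119 with shAHR#2 and 1.40 ± 0.101 with shAHR#3. All control ratios lay below 0.927 and all knockdown ratios above 1.29. The ratio of IFNAR1 to IFNAR2 was 7.47 ± 0.839 in the controls, 12.2 ± 0.733 with shAHR#2 and 8.68 ± 1.00 with shAHR#3, and here the shAHR#3 libraries (7.72 to 9.72) overlapped the controls (6.78 to 8.40). The size of this ratio also depends on how reads shared by IFNAR2 and the readthrough gene were assigned.

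**Figure D2:**
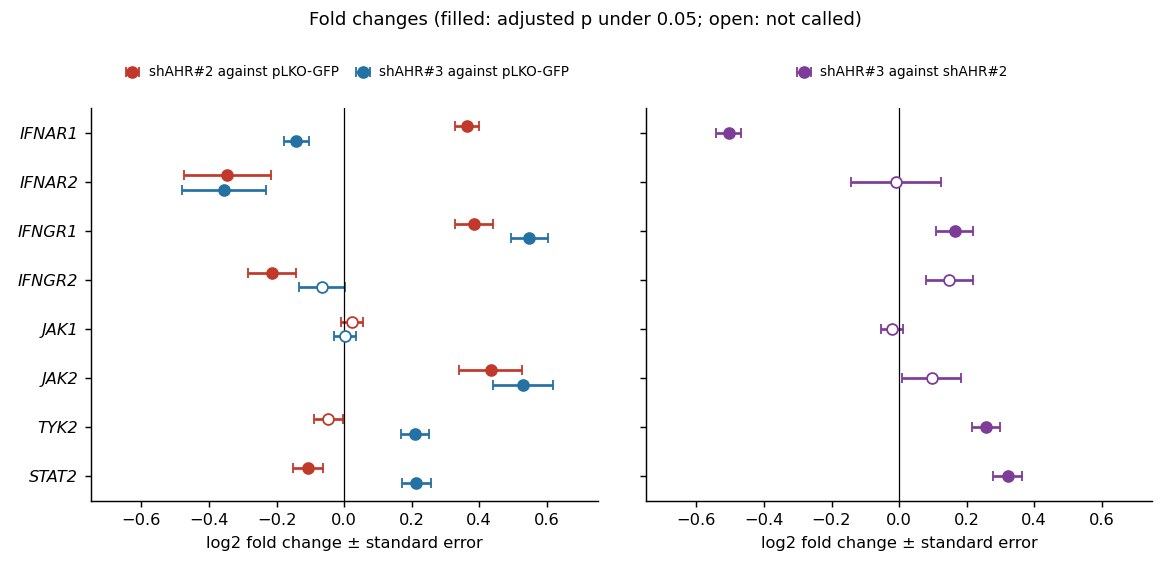
Log2 fold change (horizontal axis) and standard error of the 8 genes tested, for each hairpin against pLKO-GFP (left) and for shAHR#3 against shAHR#2 (right). Filled points had an adjusted p under 0.05, and IFNAR1 lies at 0.36 with shAHR#2 and -0.14 with shAHR#3.

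JAK1 (ENSG00000162434.13, chromosome 1, 64833223 to 65067754, minus strand), the kinase shared by the type I and the interferon gamma receptors, had the highest control level per transcript length of the 3 kinases and was not called in any comparison. Its levels were 127, 130 and 128 CPM in the controls, 129, 132 and 130 CPM with shAHR#2 and 128, 129 and 127 CPM with shAHR#3. The log2 fold change was 0.02 with shAHR#2 (standard error 0.03, edgeR adjusted p = 0.546) and 0.00 with shAHR#3 (standard error 0.03, adjusted p = 0.971), and both turned slightly negative (-0.04 and -0.03) when libraries were scaled by their totals alone. These standard errors were the smallest of the 8 genes tested.

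JAK2 (ENSG00000096968.14, chromosome 9, 4984390 to 5129948, plus strand), the kinase held by IFNGR2 and by several cytokine receptors, rose with both hairpins. It was at 11.5, 11.3 and 11.4 CPM in the controls, at 14.6, 16.6 and 15.1 CPM with shAHR#2 and at 17.9, 16.7 and 14.8 CPM with shAHR#3. No knockdown library reached down to the controls, while the constructs overlapped each other. The log2 fold change was 0.43 with shAHR#2 (standard error 0.09, edgeR adjusted p = 9.54e-05) and 0.53 with shAHR#3 (standard error 0.09, edgeR adjusted p = 3.82e-06). The difference between the constructs was 0.10 (standard error 0.09, edgeR adjusted p = 0.398). Within a library, the ratio of JAK1 to JAK2 in TPM, by canonical transcript length, was 15.5 ± 0.310 (SD, n = 3) in the controls, 11.7 ± 0.591 with shAHR#2 and 10.8 ± 0.980 with shAHR#3. The size of this ratio depends on the length used. With all annotated exon bases the control means were 35.9 TPM for JAK1 and 5.32 TPM for JAK2. RefSeq lists 4 start windows for JAK2, which held 1, 4, 1 and 2 matches to GCGTG, and the match of the third lies in the overlap with the second. Of all promoter windows, 36.5% held at least 1 match and 0.652% held 5 or more, and no share was computed for 4. A part of these matches in the rise of JAK2 was not tested. The 4 matches of the second window are shown in capitals on the plus strand, since JAK2 was the kinase that rose with both hairpins, and those printed as CACGC lie on the other strand.
JAK2 chr9:4984901-4984929: tccttgcgcgctCACGCccaggggccgtc
JAK2 chr9:4984929-4984957: cccaggaatctcCACGCgcgctcgccggc
JAK2 chr9:4984967-4984995: ggcagctgccctGCGTGgcccgcgcctgc
JAK2 chr9:4985011-4985039: caccgagcggcgCACGCgcactgcaggac

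TYK2 (ENSG00000105397.14, chromosome 19, 10350533 to 10380608, minus strand), the kinase of IFNAR1, was higher with shAHR#3. Its levels were 72.6, 74.7 and 77.1 CPM in the controls, 70.7, 75.1 and 71.7 CPM with shAHR#2 and 83.6, 84.9 and 91.2 CPM with shAHR#3. The shAHR#3 libraries stood above all others, and the shAHR#2 libraries overlapped the controls. The log2 fold change was 0.21 with shAHR#3 (standard error 0.04, edgeR adjusted p = 4.21e-05) and -0.05 with shAHR#2 (standard error 0.04, edgeR adjusted p = 0.351). Scaling by total counts alone moved the latter to -0.11 (edgeR adjusted p = 0.0231). The difference between the constructs, 0.26, passed the threshold (standard error 0.04, edgeR adjusted p = 3.92e-06).

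STAT2 (ENSG00000170581.14, chromosome 12, 56341597 to 56360203, minus strand), the subunit that carries the activating domain of ISGF3, was lower with shAHR#2 and higher with shAHR#3. It was counted at 65.9, 62.3 and 65.8 CPM in the controls, at 58.2, 61.3 and 60.6 CPM with shAHR#2 and at 76.6, 72.6 and 75.6 CPM with shAHR#3. The 3 groups did not overlap, although the highest shAHR#2 library and the lowest control were close. The rise with shAHR#3 was 0.21 on the log2 scale (standard error 0.04, edgeR adjusted p = 4.63e-05). STAT2 fell by 0.11 with shAHR#2 (standard error 0.04, edgeR adjusted p = 0.0326), and this call was lost with DESeq2 (adjusted p = 0.0815), without the filter on low counts (0.0511), and without pLKO-GFP replicate 1 (0.101), pLKO-GFP replicate 3 (0.102), shAHR#2 replicate 1 (0.172) or shAHR#2 replicate 3 (0.056). The difference between the constructs was 0.32 (standard error 0.04, edgeR adjusted p = 1.03e-07), and the mean of both constructs did not pass the threshold (0.05, edgeR adjusted p = 0.216). The RefSeq window of STAT2 held no match to any of the 3 motifs.

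IRF9 (ENSG00000213928.9, chromosome 14, 24161234 to 24168043, plus strand), the DNA-binding subunit of ISGF3, was almost uncounted. It had 0 reads in each control library, 8, 0 and 2 reads with shAHR#2 and 1, 0 and 3 reads with shAHR#3. Only shAHR#2 replicate 1 exceeded 3 counts, and no fold is given. This count does not show that the transcript was absent, because 93.1% of the exon bases of the canonical IRF9 transcript are also annotated as exons of a readthrough gene that joins IRF9 to its upstream neighbour RNF31. RNF31, a ubiquitin ligase subunit, shares 98.6% of its canonical exon bases in the same way and had 18 reads in all 9 libraries together. The readthrough gene itself also had 18 reads. Of the neighbours with no canonical exon base in a readthrough gene, PSME2, the gene of a proteasome activator subunit, had 1008 to 1431 reads per library and REC8, a meiotic cohesin subunit, 6 to 21. The counts of IRF9 and RNF31 are therefore uncertain. The effect of the counting rule on them was not tested, since reads were not used here. The RefSeq window of IRF9 held 1 gamma-activated site, a motif that 7.66% of all windows hold. It is shown in capitals because IRF9 was the only member, of the 8 with a window, with a match to this motif. Of the bases of the stretch, 29 of 29 lie in annotated exons, counting those of any gene.
IRF9 chr14:24161192-24161220: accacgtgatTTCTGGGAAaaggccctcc

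**Figure D3:**
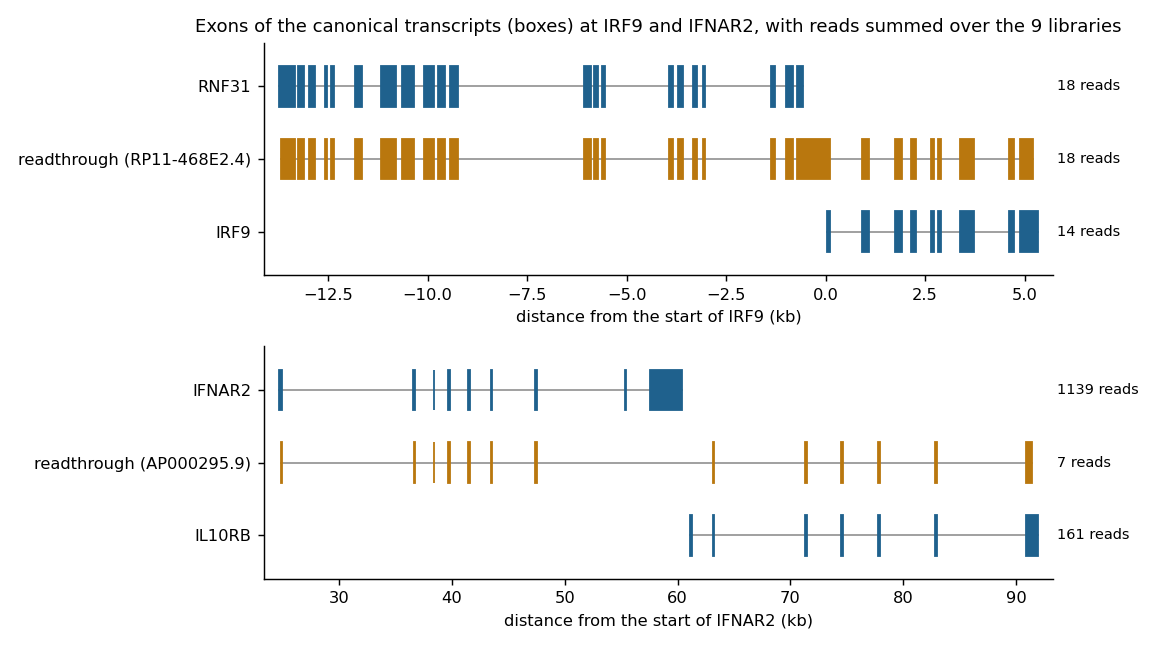
Exons (boxes) of the canonical transcripts at IRF9 and at IFNAR2 against distance in kb from the start of each gene, with reads summed over the 9 libraries at the right. The exons of RNF31 and IRF9 recur in the readthrough gene between them, and these 3 genes had 18, 14 and 18 reads for RNF31, IRF9 and the readthrough gene.

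The levels of the members were compared with each other per length. With the length of all annotated exon bases, the control levels were 39.7 ± 1.07 TPM (SD, n = 3) for IFNGR2, 35.9 ± 1.47 for JAK1, 32.4 ± 1.28 for TYK2, 31.6 ± 0.421 for IFNGR1, 25.6 ± 0.119 for STAT2 and 20.7 ± 1.15 for IFNAR1. JAK2 (5.32 ± 0.114) and IFNAR2 (2.12 ± 0.327) were lower, and TYK2 and IFNGR1 did not differ beyond their spread. Dividing by the canonical transcript alone put JAK1 first, at 59.4 ± 1.71 TPM, followed by TYK2 (41.6 ± 1.37) and IFNGR2 (37.98 ± 1.00). STAT2 (34.7 ± 0.514), IFNGR1 (34.6 ± 0.550) and IFNAR1 (34.1 ± 1.49) then lay within their spread of each other, and IFNAR2 (4.61 ± 0.658) was above JAK2 (3.83 ± 0.0361). Under both lengths the low members were JAK2, IFNAR2 and IRF9, but their order and that of the others depended on the length chosen. The canonical transcripts of IFNAR2 and IRF9 share 49.1% and 93.1% of their exon bases with readthrough genes. Their low places therefore also depend on how shared reads were assigned, which was not tested.

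**Figure D4:**
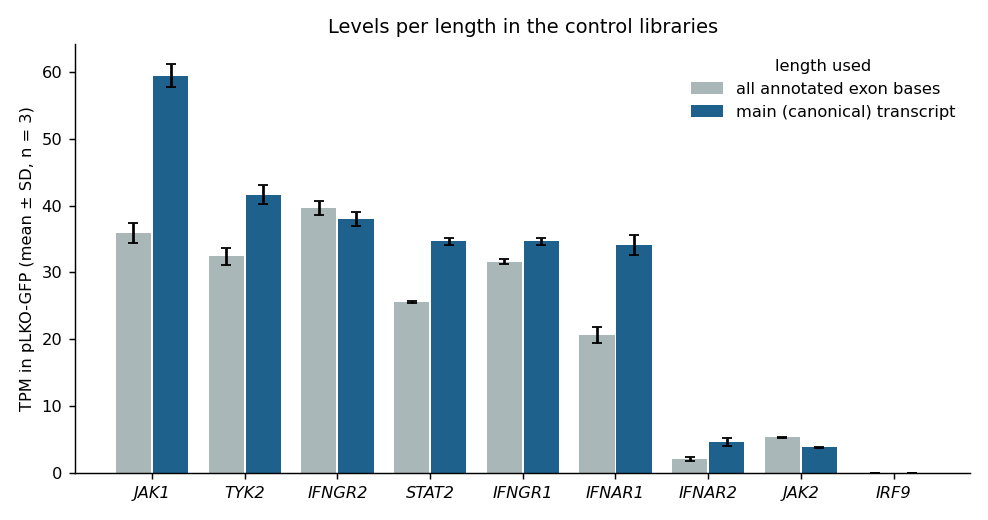
TPM in the control libraries (mean and SD, n = 3) with 2 choices of length. JAK2, IFNAR2 and IRF9 are below 6 TPM with either, while JAK1 moves from 35.9 to 59.4 TPM.

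The genes whose log2 CPM followed each member most closely over the 9 libraries were sought among 11833 well-counted genes, and the correlations describe 9 libraries in 3 groups. For IFNAR1 these were ASPH (Pearson r = 0.995) and SDC4 (0.994), which had log2 fold changes of 0.29 and 0.54 with shAHR#2 and of -0.10 and -0.14 with shAHR#3. For STAT2 they were CYP2S1 and NR4A2 (both 0.987), with changes of -0.26 and -0.32 with shAHR#2 and of 0.53 and 0.65 with shAHR#3. For TYK2 they were LAMB2 (0.983) and ANO8 (0.979), for JAK2 NOTCH3 and CD164 (both 0.977), for IFNGR2 HELQ (0.963) and GMDS (0.958), and for IFNAR2 MED20 (0.940) and SMIM4 (0.938). JAK1, which hardly varied, was matched by AC114271.2 (0.957) and RBPMS2 (0.903), and IFNGR1 by RP11-395N3.1 (0.992). Among all pairs of members, the strongest correlations of either sign were picked out. IFNGR1 and JAK2 had an r of 0.917, TYK2 and STAT2 of 0.913, and IFNAR1 and STAT2 of -0.881.

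IFNAR2, IFNAR1 and IFNGR2 lie in a cluster on chromosome 21 with IL10RB between the first and the second. Neighbours in the cluster differed with shAHR#2: IFNAR1 rose by 0.36, while IFNAR2 fell by 0.35 and IFNGR2 fell by 0.21 on the log2 scale. The calls of IFNAR2 and IFNGR2 with shAHR#2 were each lost in some fits with 1 library left out. With shAHR#3 the values for IFNAR1, IFNAR2 and IFNGR2 were -0.14, -0.36 and -0.07, the last not called. IL10RB, a chain of the receptors for interferon lambda and interleukin 10, shares 89.2% of its canonical exon bases with a readthrough gene, and had 11 to 29 reads per library and a log2 fold change of -0.10 with shAHR#2 and 0.06 with shAHR#3 (standard errors 0.37 and 0.35, edgeR adjusted p = 0.825 and 0.906). TMEM50B, which overlaps IFNGR2, fell by 0.44 with shAHR#2 (standard error 0.19, edgeR adjusted p = 0.0386). It was not called with shAHR#3 (-0.34, edgeR adjusted p = 0.108).

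The genes around the members were counted by lists, and the shares called over all genes tested stand beside each count, for shAHR#2 first. Of the interferon lambda chains and the remaining JAK kinase, IFNLR1 rose with both constructs, with 3.44 to 5.14 CPM in the controls, 5.95 to 7.06 CPM under shAHR#2 and 6.33 to 7.52 CPM under shAHR#3. Its log2 fold changes were 0.55 and 0.67 (edgeR adjusted p = 0.00132 and 0.000105). JAK3, a kinase mostly of lymphoid cells, had 2 to 34 reads per library and was called higher with shAHR#3 (1.15, standard error 0.42, edgeR adjusted p = 0.019) and not with shAHR#2 (0.42, edgeR adjusted p = 0.445), while the difference between the constructs did not pass the threshold (0.73, edgeR adjusted p = 0.156). The interferon ligands themselves were nearly uncounted: none of the 22 interferon genes had more than 1 read in any library. Of the 6 other STAT genes, 4 were higher and 2 lower with shAHR#2, and likewise 4 and 2 with shAHR#3 (all genes: 32.6% higher and 33.2% lower, and 26.9% and 27.5%). Their median log2 fold changes were 0.28 and 0.29, against -0.00323 and -6.88e-05 over all genes. STAT5A, a factor of prolactin signalling in mammary cells, rose by 0.51 and 0.48, STAT6, the factor of interleukin 4, by 0.55 and 0.40, and STAT4, at about 1 CPM in the controls, fell by 2.21 and 1.19 (edgeR adjusted p at most 0.00748 for each). STAT4 was a low-count gene, at 0.161 to 0.257 CPM with shAHR#2 and 0.439 to 0.463 CPM with shAHR#3. Of the other IRF genes, 5 of 8 were tested, with 1 higher and 1 lower with shAHR#2 and 1 higher and 0 lower with shAHR#3 (all genes: 32.6% higher and 33.2% lower, and 26.9% and 27.5%). IRF3, an activator of interferon genes, rose by 0.38 with shAHR#2 and by 0.19 with shAHR#3 (edgeR adjusted p = 1.65e-06 and 0.0104).

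Of 18 listed proteins that hold JAK and STAT signals down, 17 were tested, and 5 were higher and 8 lower with shAHR#2, 6 higher and 8 lower with shAHR#3 (all genes: 32.6% higher and 33.2% lower, and 26.9% and 27.5%). The median log2 fold changes were -0.12 and -0.02. SOCS1, which blocks JAK kinases, fell, with 0.791 to 1.85 CPM in the controls, 0.190 to 0.514 CPM under shAHR#2 and 0.512 to 0.720 CPM under shAHR#3 (edgeR adjusted p = 0.000118 and 0.00562). PTPN6, the phosphatase SHP-1, fell by 1.64 and 0.62, in log2 (edgeR adjusted p = 1.05e-06 and 0.017). USP18, which binds IFNAR2 and limits type I signalling, rose by 0.65 and 1.08 (edgeR adjusted p = 0.0324 and 0.000332). SH2B3, an adaptor that restrains JAK2, rose by 0.99 and 0.47, and this difference between the constructs passed the threshold (-0.53, standard error 0.03, edgeR adjusted p = 3.47e-19). SOCS1, PTPN6 and USP18 were all low-count genes, below 4 CPM in each library.

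Of 30 targets of ISGF3, 28 were tested. With shAHR#2, 13 were higher and 9 lower (median log2 fold change 0.23), beside 32.6% and 33.2% of all genes. With shAHR#3, 21 were higher and 2 lower (median 0.43), beside 26.9% and 27.5%, and between the constructs 17 were higher and 3 lower with shAHR#3 than with shAHR#2, beside 21.9% and 20.4%. OAS1, an antiviral enzyme, was at 0.791 to 1.25 CPM in the controls, 4.11 to 4.93 with shAHR#2 and 10.0 to 10.3 with shAHR#3, and IFI44L also rose with both (by 2.19 and 0.77). BST2, which tethers budding virus, fell by 3.26 with shAHR#2 and by 0.44 with shAHR#3, and HERC5, a ligase for ISG15, fell by 1.02 and 0.19. IFIT1, which binds viral RNA, was called in opposite directions, -0.61 with shAHR#2 and 0.43 with shAHR#3, as was IFIH1, a sensor of double-stranded RNA (-0.56 and 0.41), with an edgeR adjusted p of at most 0.0133 for each of these 6 genes. The constructs differed by 1.03 for IFIT1 (edgeR adjusted p = 2.41e-19) and by 0.97 for IFIH1 (edgeR adjusted p = 9.43e-10).

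Of 18 targets of interferon gamma, 14 were tested. With shAHR#2, 7 were higher and 3 lower (median log2 fold change 0.20), and with shAHR#3, 5 were higher and 3 lower (median 0.04) (all genes: 32.6% higher and 33.2% lower, and 26.9% and 27.5%). ICAM1, an adhesion protein, rose by 1.50 and 1.13, from 44.7 to 45.1 CPM in the controls, and GBP5, a guanylate-binding protein, was under 0.102 CPM in each control library and at 0.375 to 1.03 with shAHR#2 and 0.342 to 0.665 with shAHR#3. GBP5 was a low-count gene, hardly counted in the controls. CD74, the invariant chain of MHC class II, fell by 2.20 and 1.29, and SECTM1 fell by 1.66 and 0.95 (edgeR adjusted p at most 0.00283 for each of these 4 genes). Of 30 other cytokine receptor chains, 17 were tested, of which 5 were higher and 5 lower with shAHR#2 and 6 higher and 4 lower with shAHR#3 (all genes: 32.6% higher and 33.2% lower, and 26.9% and 27.5%). LEPR, the leptin receptor, fell by 2.55 and 0.95, LIFR, a chain for leukemia inhibitory factor, fell by 1.00 and 0.24, and IL20RA rose by 1.26 and 1.15 (edgeR adjusted p at most 0.000136 for each).

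**Figure D5:**
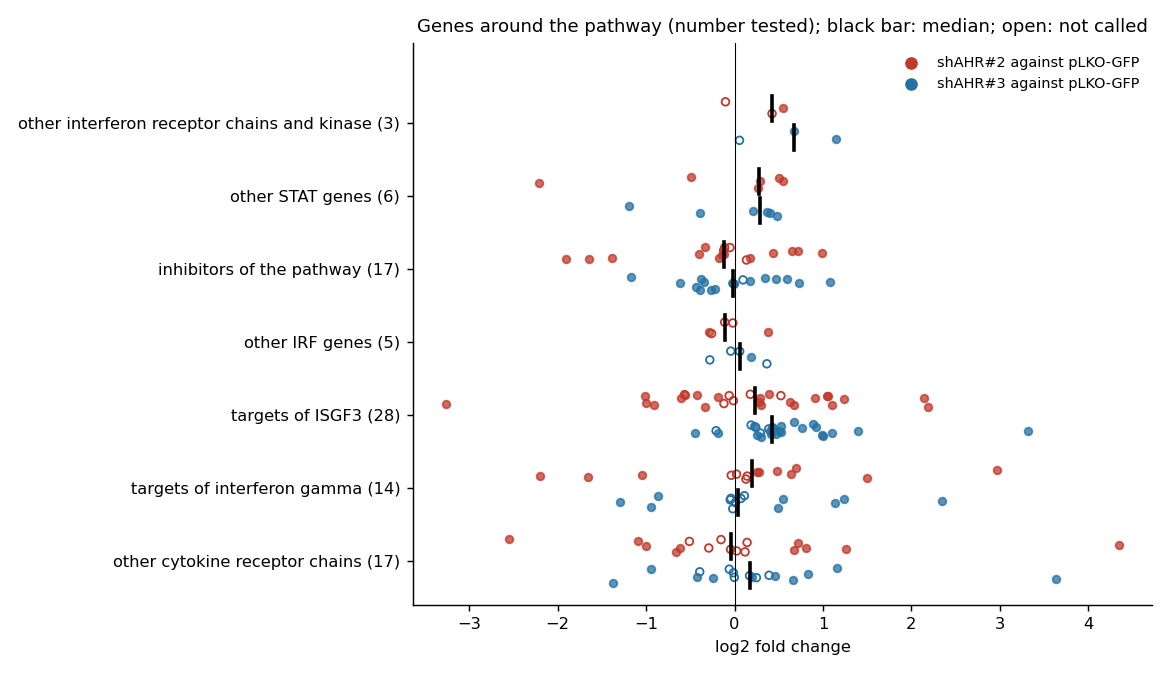
Log2 fold change against pLKO-GFP (horizontal axis) of each tested gene of 7 lists, with shAHR#2 in red, shAHR#3 in blue, open circles for genes not called and a black bar at the median. The median of the ISGF3 targets lies at 0.23 with shAHR#2 and 0.43 with shAHR#3.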

How the data were processed

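Libraries were made by the authors with a stranded mRNA kit and read from 1 end, and STAR was their aligner, with GRCh38.p13 as the genome. The submitters' processing notes also name FastQC, Subread and featureCounts. The deposited values are whole-number counts per gene, without normalization. The annotation release, the strand setting and the treatment of reads shared by overlapping genes are not given in the sources used here.

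All 60649 genes were passed through filterByExpr (minimum count 10, minimum total count 15), scaled by TMM and fitted once over the 9 libraries, with a mean per group, by edgeR 4.0.16 (R 4.3.3) with its quasi-likelihood test and Benjamini-Hochberg adjustment over the 14274 genes tested. DESeq2 1.42.0 was an alternative. The standard error of a fold change is its size divided by the square root of F. Replicate libraries differed by more than counting noise (chi-square of 1.76 to 4.22 per degree of freedom), and their biological coefficient of variation was 2.96%. TPM used exon lengths of GENCODE 44, in which 60463 identifiers were found, 54131 of them with the same version. Reads carry no molecular identifiers, so a limit of 3 counts covers counting error only.

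The members and lists were chosen with earlier results of these data known. Genes were named by rule: all members, AHR, the 2 largest rises and 2 largest falls of each list among genes called the same way with both constructs, up to 2 called in opposite directions, the 2 genes most correlated with each member whose average log2 CPM was 1 or more, and overlapping or neighbouring genes. PSME2, REC8 and RNF31 (as neighbours of IRF9) and JAK3 were added after their values were seen. Some results that the rule selects are not reported here.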

Additional observations from a re-analysis of the deposited data

Results flagged for a closer look

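The effects of the 2 hairpins differed, by the direct test of shAHR#3 against shAHR#2, for 4 of the 8 genes tested. Of these, 3 were higher and 1 was lower with shAHR#3, beside 21.9% higher and 20.4% lower of all genes tested. The count is thus of the same order as over all genes. The log2 difference was -0.50 for IFNAR1, 0.16 for IFNGR1, 0.26 for TYK2 and 0.32 for STAT2. For IFNAR1 and STAT2 the hairpins were called in opposite directions, for IFNGR1 in the same direction with unequal size, and for TYK2 with shAHR#3 alone. The call of STAT2 with shAHR#2 was lost under 6 of 16 alternative fits (DESeq2 adjusted p = 0.0815), and those of IFNAR1 under none of 16. These fits leave out the 2 stricter thresholds given below. With an absolute log2 fold change of at least 0.5, the calls against pLKO-GFP of IFNAR1 (0.36 and -0.14) and STAT2 (-0.11 and 0.21) were all lost. AHR itself was higher with shAHR#3 than with shAHR#2 by 0.19 (edgeR adjusted p = 0.00283), a difference that fell to 0.13 (adjusted p = 0.0626) without shAHR#3 replicate 2. The part of the remaining AHR level, or of the sequence of either hairpin, in these differences was not tested.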

How the results depend on the processing

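The alternatives were DESeq2, its size factors in edgeR, scaling by total counts alone, no low-count filter, a minimum mean of 50 counts, fits of the compared groups alone, a replicate block, each library left out in turn, an adjusted p under 0.01 and an added absolute log2 fold change of at least 0.5. The last moved the number of members called most: 0 in place of 6 with shAHR#2, 2 in place of 6 with shAHR#3, 0 in place of 6 for the mean of both and 1 in place of 4 between the constructs. Left-out libraries gave 4 to 6 calls with shAHR#2, 5 to 6 with shAHR#3, 4 to 6 for the mean of both and 4 to 5 between the constructs. Of 504 other values for single members, 462 kept direction and side of the threshold, 28 lost the call, 3 gained it and 11 changed sign. The sign changes concerned uncalled values only: JAK1 with totals alone (-0.0429 with shAHR#2, -0.0265 with shAHR#3, -0.0347 for the mean of both and 0.0164 between the constructs), JAK1 with shAHR#3 without pLKO-GFP replicate 1, pLKO-GFP replicate 3 or shAHR#3 replicate 2 (values from -0.00504 to 0.0103 over the left-out libraries), and IFNAR2 between the constructs with totals alone (0.0282) and without shAHR#2 replicate 1, shAHR#3 replicate 2 or shAHR#3 replicate 3 (-0.107 to 0.0655 over the left-out libraries). Calls for the mean of both constructs were weak for IFNGR2 and TYK2 (adjusted p up to 0.157 and 0.42). For the lists, 528 alternative counts stayed within 1.5 times the reported count and 40 did not. Levels per length were also taken with the longest transcript, the canonical transcript, and the lowest or highest library of the group. Of these values, 74 lay more than 1 SD from the group mean and 34 did not. With 3 libraries that differ, the lowest or the highest lies 1 SD or more from the mean by arithmetic. The count of 74 therefore does not measure stability. Without a filter IRF9 was tested and called with shAHR#2 (adjusted p = 0.0146) on 10 reads, 8 of them in 1 library.

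Deviations of same-numbered libraries from their group means correlated weakly, at 0.0031 to 0.0578 in 9 pairs, against -0.068 to 0.0234 in the other pairs. In 15 of 18 comparisons a library correlated best with its own number. These comparisons are not independent, because each pair of libraries enters from both sides and the deviations within a group sum to 0. Whether same-numbered libraries share a small deviation was not tested, and the main fit did not model one. With the replicate block, 6, 6, 6 and 4 members were called in the 4 comparisons and no member call changed. The lowest members limit precision most, with standard errors of 0.13 for IFNAR2 against 0.03 for JAK1.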

Other observations

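The low counts of IRF9 and RNF31 were set beside those of other protein-coding genes that share exons with a readthrough gene. Among 18178 genes with no canonical exon base in a readthrough gene, the median of the mean count over the 9 libraries was 126, and 37.8% had a mean under 10. Among 702 genes sharing up to 50% the median was 247, among 267 genes sharing 50% to 90% it was 26.2, and among 185 genes sharing 90% or more it was 5.33, with 56.2% under 10. The cause of this difference was not tested.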
